A study of Mus musculus with 15 samples.

Results

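The livers of 3 mice fed a purple corn diet (RD) were compared with those of 3 mice fed the standard diet (SD), which makes 6 of the 15 libraries of the series. The groups were taken from the sample labels, and the genes described are those whose promoter held an H3K4me3 peak in one diet and not in the other, together with the width and rank of the peaks at promoters marked in both. The study asked how diet, and cyanidin-3-O-glucoside in particular, affects H3K4me3 in the liver. C57BL/6 females from 6 litters were assigned at random to 5 diets at an age of 3 months and fed for 10 months, whereas the age in the labels is 12 months. RD and SD were both given ad libitum. RD is the standard diet with its maize replaced by powder of seeds from the anthocyanin-rich B1 Pl1 purple corn, whose main anthocyanin is cyanidin-3-O-glucoside. RD and SD differ in the corn line as well as in its anthocyanins, which cannot be told apart in this pair of diets. H3K4me3 was measured by PAT-ChIP-seq, which sequences the DNA immunoprecipitated with the mark from chromatin of fixed tissue in paraffin (4 sections), with 1 library per mouse.

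Trimethylation of lysine 4 on histone H3 is laid down by the SET1 and MLL methyltransferase complexes and removed by demethylases of the KDM5 family. It is concentrated on the nucleosomes around the transcription start sites (TSSs) of active genes, above all at promoters rich in CpG dinucleotides, and it is often weaker at the CpG-poor promoters of tissue-specific genes. In the liver the mark lies at the promoters of hepatocyte genes, among them those for plasma proteins and for glucose, lipid and amino acid metabolism.

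The promoters of 5 of the genes named below are shown, because their CpG content ranged from low to high. None of these 5 kept its call under every alternative setting described below. Pck1, Pklr and Shmt2 are metabolic genes that lost their peak in RD, Apoc2 had the highest ranked SD peak among the lost genes, and Slc25a38 was one of the few genes that gained a peak. The RefSeq windows run from 250 bases before to 50 bases after the start site on GRCm38.p6 and are written 5′ to 3′ on the strand of the gene, with CpG dinucleotides in capitals. They lie at chr2:173152823-173153122 on the plus strand (Pck1), chr3:89135892-89136191 on the plus strand (Pklr), chr7:19677892-19678191 on the minus strand (Apoc2), chr10:127522395-127522694 on the minus strand (Shmt2) and chr9:120110132-120110431 on the plus strand (Slc25a38).
Pck1: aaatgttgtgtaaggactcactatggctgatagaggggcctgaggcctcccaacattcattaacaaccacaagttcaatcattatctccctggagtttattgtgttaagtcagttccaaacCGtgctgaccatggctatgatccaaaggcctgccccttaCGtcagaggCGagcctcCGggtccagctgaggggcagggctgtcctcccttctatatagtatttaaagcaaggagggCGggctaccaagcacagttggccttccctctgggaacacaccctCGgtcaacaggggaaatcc
Pklr: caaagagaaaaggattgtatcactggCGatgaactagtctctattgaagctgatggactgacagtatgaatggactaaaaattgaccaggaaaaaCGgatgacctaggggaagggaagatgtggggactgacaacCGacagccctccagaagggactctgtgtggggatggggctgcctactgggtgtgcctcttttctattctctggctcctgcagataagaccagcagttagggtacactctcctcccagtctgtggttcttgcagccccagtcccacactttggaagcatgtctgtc
Apoc2: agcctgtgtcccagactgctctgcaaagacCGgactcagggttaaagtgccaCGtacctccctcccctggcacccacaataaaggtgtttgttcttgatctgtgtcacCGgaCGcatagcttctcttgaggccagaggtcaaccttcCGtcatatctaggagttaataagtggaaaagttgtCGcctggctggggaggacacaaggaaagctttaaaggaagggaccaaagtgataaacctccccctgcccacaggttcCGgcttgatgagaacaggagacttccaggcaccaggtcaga
Shmt2: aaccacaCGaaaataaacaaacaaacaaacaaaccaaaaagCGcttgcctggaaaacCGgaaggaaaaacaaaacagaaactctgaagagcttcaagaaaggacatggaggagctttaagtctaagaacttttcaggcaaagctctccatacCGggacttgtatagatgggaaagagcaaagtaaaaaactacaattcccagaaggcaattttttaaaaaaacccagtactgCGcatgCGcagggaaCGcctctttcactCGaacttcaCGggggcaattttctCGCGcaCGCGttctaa
Slc25a38: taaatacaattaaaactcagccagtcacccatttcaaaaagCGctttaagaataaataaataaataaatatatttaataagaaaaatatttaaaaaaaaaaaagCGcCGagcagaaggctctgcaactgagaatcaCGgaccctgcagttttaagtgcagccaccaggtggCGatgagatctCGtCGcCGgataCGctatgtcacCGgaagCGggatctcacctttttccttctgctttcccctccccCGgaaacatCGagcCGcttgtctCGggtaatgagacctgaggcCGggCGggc
The window of Pklr held 3 CpG dinucleotides, that of Pck1 6, Apoc2 7, Shmt2 13 and Slc25a38 17. The Pklr peaks began 459 bp downstream of the start site of the window shown. Pklr had 2 listed promoters, and which of them the liver uses was not tested. The Pklr window and its CpG count therefore cannot be read as those of the promoter that lost its peak. The Pck1 peaks began up to 728 bp downstream of the start site, except that the SD replicate 2 island of Pck1 spanned it. No Pck1 or Pklr peak held the whole window.

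In the text a peak is an island of the deposited lists, a run of enriched windows called by SICER2. A promoter was marked when an island lay within 1 kb of any TSS of the gene. The score of an island is not scaled between libraries, so it is given as a percentile within the list of its own library, where 100 is the highest score. The lists rested on 10714462, 9547841 and 6541539 reads in SD replicates 1 to 3 and on 9318315, 13978169 and 9237277 reads in RD, recovered from the scores of single-window islands. They held 23107, 14681 and 10501 islands in SD and 14454, 32131 and 12658 in RD. RD replicate 2 had the most islands, and 25% of them lay at promoters, against 41.1 to 64.3% in the other libraries. The share of islands at promoters was 55.8% ± 12.8 (SD, n = 3) in the SD diet and 38.6% ± 11.8 (n = 3) in RD. The difference of −17.2 points did not pass the test (exact permutation test, two-sided, p = 0.3). Without RD replicate 2 it was −10.4 points (exact permutation p = 0.4). Nothing in the labels ties the 6 mice to litters, and with 3 against 3 the smallest two-sided p is 0.1.

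Hepatocyte promoters were marked in both diets. Of 49 hepatocyte genes, 46, 44 and 47 had an island in SD and 44, 43 and 37 in RD, and Hnf4a, Apob, Ttr and Tat had one in all 6 libraries. Alb, the gene of serum albumin, had an island within 1 kb in 1 SD and 1 RD library only. Markers of the other liver cells were seldom marked. For Kupffer cells 1 to 3 of 18 genes had an island in SD and 2 to 3 in RD, and Clec4f, Vsig4, Cd5l, Timd4 and Marco had none. For cholangiocytes the range was 1 to 2 of 12 in SD and 1 in RD, for lymphocytes 0 to 1 of 16 and 0, for neutrophils 0 of 10 in both, and for erythroid cells 0 to 1 of 9 and 0. Sinusoidal endothelial markers had an island at 11, 3 and 6 of 18 genes in SD and at 2, 3 and 3 in RD. Stellate cell markers had one at 1, 2 and 4 of 18 genes in SD and at 1, 0 and 0 in RD. The part of these cells in the genes lost in RD was not tested, and in bulk tissue fewer cells of a type and less H3K4me3 per cell cannot be told apart.

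Fewer genes were marked in RD than in SD. The share of the 21755 protein-coding genes with an island at a TSS was 43.1, 43.0 and 32.7% in SD and 31.2, 34.7 and 27.8% in RD. The groups overlapped, since SD replicate 3 lay below RD replicate 2. The means were 39.6% ± 5.98 (SD, n = 3) and 31.2% ± 3.46 (n = 3), and the difference of −8.38 points did not pass the test (two-sided exact permutation test, p = 0.2). Gene by gene, 852 genes (3.92% of those tested) had an island in at least 2 of 3 SD libraries and in no RD library, and 48 genes (0.221%) showed the reverse. With an island in all 3 SD or all 3 RD libraries and none of the opposite diet, 229 genes (1.05%) were lost in RD and 6 (0.0276%) were gained. Of the 6341 genes marked in all 3 SD libraries, 3.61% were lost, and 3962 (62.5%) were marked in all 3 RD libraries too. Of the 4445 genes marked in all 3 RD libraries, 0.135% had no SD island. For a single gene, 3 of 3 against 0 of 3 libraries gives a smallest two-sided exact p of 0.1, so these are counts and not tested calls.

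**Figure D1:**
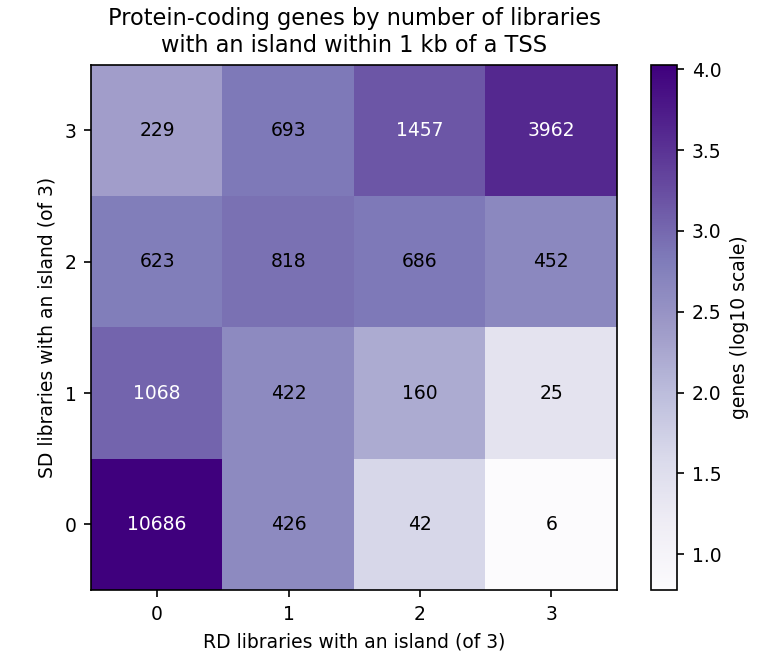
Number of protein-coding genes by the number of SD libraries (vertical axis, 0 to 3) and RD libraries (horizontal axis, 0 to 3) with an island within 1 kb of a TSS, with colour on a log10 scale. The upper left cell holds the 229 genes lost in RD and the lower right cell the 6 genes gained, while 3962 genes were marked in all 6 libraries and 10686 in none.

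The counts were taken again with the number of marked genes held equal, which by construction brings lost and gained genes close to each other. When each library was reduced to the 6050 genes with the highest island scores, 292 genes were lost and 269 gained under the rule of 2 of 3, and 57 and 56 under the rule of 3 of 3. Only 24 of the 229 genes (10.5%) were still called lost. With the same number of islands per list (10501) 1047 genes were lost and 42 gained. The genes named as lost are those without an RD island in the lists as deposited, and the part of the number of marked genes per library in each call was not tested. No single mouse turned the direction, though 45 of the 48 gained genes had an island in RD replicate 2, and without it 1567 genes were lost and 9 gained. RD replicate 1 is the only one of the 6 whose library name has the form PATChIP, and without it 1335 genes were lost and 22 gained. Leaving out SD replicate 1 or 2 gave 314 or 327 lost genes. With a mouse left out, presence in its diet required an island in both remaining libraries, and absence was judged on those 2 alone. These counts thus differ from the main ones in the rule as well as in the mouse.

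**Figure D2:**
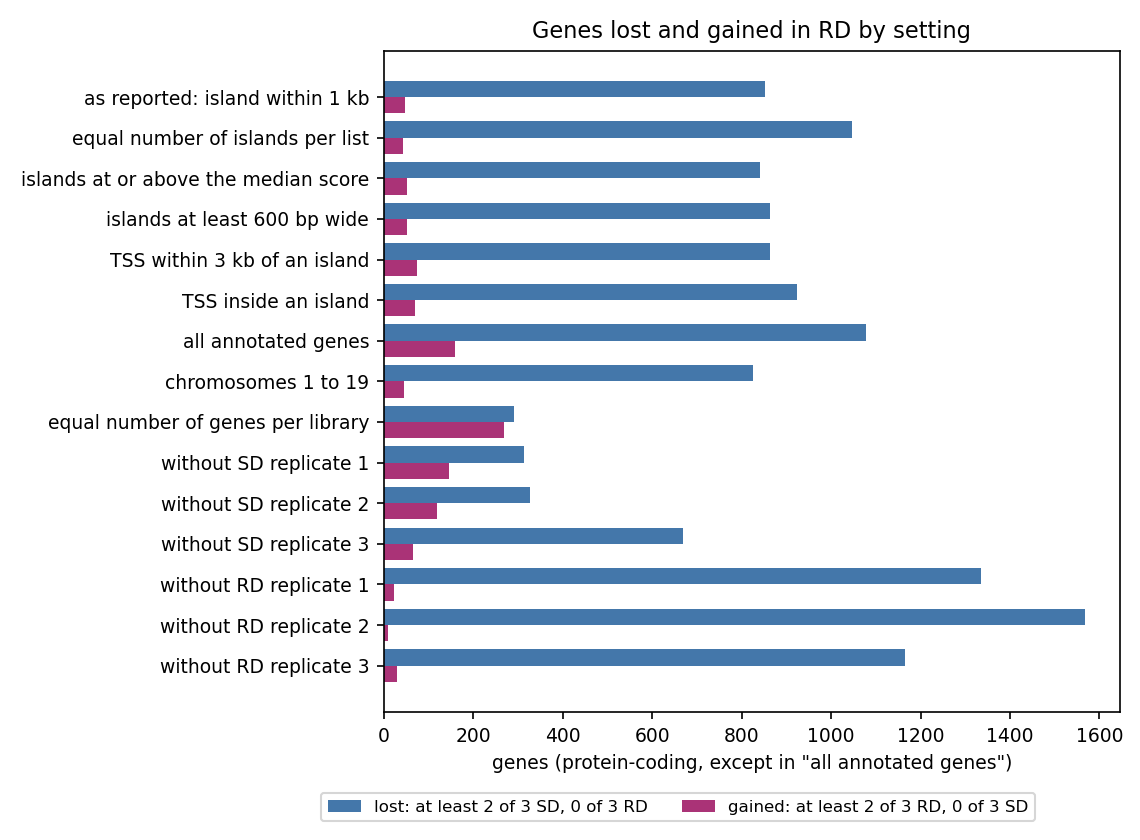
Number of genes lost in RD (blue bars, island in at least 2 of 3 SD and 0 of 3 RD) and gained in RD (purple bars, the reverse) as reported and under each alternative named on the vertical axis. Where a mouse is left out, presence in its diet requires both remaining libraries. The lost bars are the longer ones in each setting, but with an equal number of genes per library they are nearly level, at 292 and 269.

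Lost genes had weak peaks in SD. Their mean SD percentile had a median of 48.1, against 80.7 for the genes marked in all 6 libraries, and the median of their mean width was 1533 bp against 2267 bp. Of genes marked in all 3 SD libraries, 34.1% of those with a mean percentile of 0 to 25 (15 of 44) had no RD island, then 16.1% (113 of 700), 3.67% (93 of 2536) and 0.261% (8 of 3061) in the bins of 25 to 50, 50 to 75 and 75 to 100. Most lost promoters were far from any RD island. The nearest one was a median of 23617 bp from the TSS, 173 genes (75.5%) had none within 10 kb, and 24 (10.5%) had one between 1 and 5 kb away. The rule itself leaves no RD island within 1 kb, and these distances were not taken for other genes. They are therefore not shown to be particular to lost genes. The 229 genes rest on 216 sets of islands, since 25 genes share their islands with another lost gene, as Chdh and Il17rb do.

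The lost promoters were poorer in CpG than those marked throughout. Over windows of 300 bases from the genome, the median ratio of observed to expected CpG was 0.627 for the 229 lost genes, 0.694 for the 3962 shared genes and 0.445 for all protein-coding genes. Among genes with a mean SD percentile of 25 to 75 it was 0.636 for 206 lost genes and 0.689 for 1381 shared genes. Within this range the lost genes still ranked lower, with a median SD percentile of 48.8 against 66.0. The 48 genes gained under the rule of 2 of 3 had a median CpG ratio of 0.243, and of these 10 were olfactory receptors and 4 were vomeronasal receptors. Olfactory receptor genes had an island in 145 of 1093 cases in RD replicate 2 and in 9 to 57 cases in the other libraries. These ratios and counts are descriptions, with no test.

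Among the 12 lost genes with the highest SD percentiles were several with roles in liver metabolism and iron. Apoc2, the activator of lipoprotein lipase, had SD islands of 1000, 4000 and 3600 bp at percentiles of 68.1, 94.9 and 86.6 and none in RD. These islands lay almost wholly outside the gene (91.5 to 100% of their bases), and an RD island stood 1260 bp from the TSS, so the call was lost when islands within 3 kb were counted. Pck1, cytosolic phosphoenolpyruvate carboxykinase and a controlling enzyme of gluconeogenesis, had islands of 1800, 3200 and 3200 bp at percentiles of 51.2, 83.3 and 93.1. They covered exons and introns at the start of the gene, from chr2:173153801-173155600 in SD replicate 1 to chr2:173153201-173156400 in SD replicate 3. In RD the nearest island was 65119 bp away. With the same number of islands per list or of genes per library, or with the TSS required inside an island, Pck1 was no longer called in 3 of 3 SD libraries. Tmprss6, a serine protease that holds down hepcidin in hepatocytes, had percentiles of 77.5, 84.1 and 70.2 in SD and no island within 34635 bp in RD.

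The other genes of high rank were Nek8, a kinase of the primary cilium, Tmc4, Stip1, the co-chaperone that links Hsp70 to Hsp90, Eipr1, a protein of endosomal traffic, Gltpd2, Prim2, the large subunit of DNA primase, Adamts9, an extracellular protease, Pias4, a SUMO ligase, and Osbpl1a, an oxysterol-binding protein. Their mean SD percentiles ran from 70.2 ± 22.5 (SD, n = 3) for Osbpl1a to 83.1 ± 3.10 for Nek8. The Osbpl1a mean joins different TSSs. Its widest islands lay at chr18:12860001-12864200 in SD replicate 1 and chr18:12860801-12864400 in SD replicate 3. In SD replicate 2 the widest lay at chr18:12940801-12942000, at a percentile of 44.3. Gltpd2, Pias4, Prim2 and Stip1 kept the call of 3 against 0 in 14 of 14 alternatives. Leaving out a mouse or counting all annotated genes cannot undo such a call. Leaving out chromosome X cannot undo it for these autosomal genes. Only the remaining alternatives, which changed the distance to the TSS or the islands or genes kept, could test it. Stip1 had SD islands of 1600, 2400 and 2200 bp at percentiles of 81.4, 67.8 and 82.1, with its nearest RD island at 16834 bp. Prim2 had islands of 1600 bp in each SD library, at percentiles of 81.5, 60.04 and 79.9. For Nek8, Tmc4 and Eipr1 an RD island stood 1003 to 1326 bp from the TSS, and with 3 kb the call was lost. The Tmc4 islands in SD lay mostly outside the gene (76.5 to 89.45% of their bases). With the TSS required inside an island the Tmc4 call was lost too.

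The 6 genes gained in all 3 RD libraries were Cdkl2, Serping1, Prrc1, Slc25a38, Kremen1 and Dmd. Serping1, the C1 inhibitor of complement made by the liver, had RD islands of 1600, 1800 and 1800 bp at percentiles of 45.4, 66.4 and 69.6, all inside the gene. Slc25a38, the mitochondrial glycine carrier needed for heme synthesis, had RD islands of 1000, 1000 and 400 bp at percentiles of 56.3, 67.9 and 18.96. Cdkl2, a kinase related to the cyclin-dependent kinases, reached 58.9, 97.2 and 32.3. Kremen1, a receptor for Dickkopf in Wnt signalling, reached 20.5, 84.4 and 34.6, and Dmd, the dystrophin gene, 47.2, 34.2 and 30.5. All 6 had an island in 3 of 3 high-fat (HF) libraries and in 2 or 3 of 3 caloric restriction (CR) libraries. With the same number of marked genes per library 4 of the 6 were still called.

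**Figure D3:**
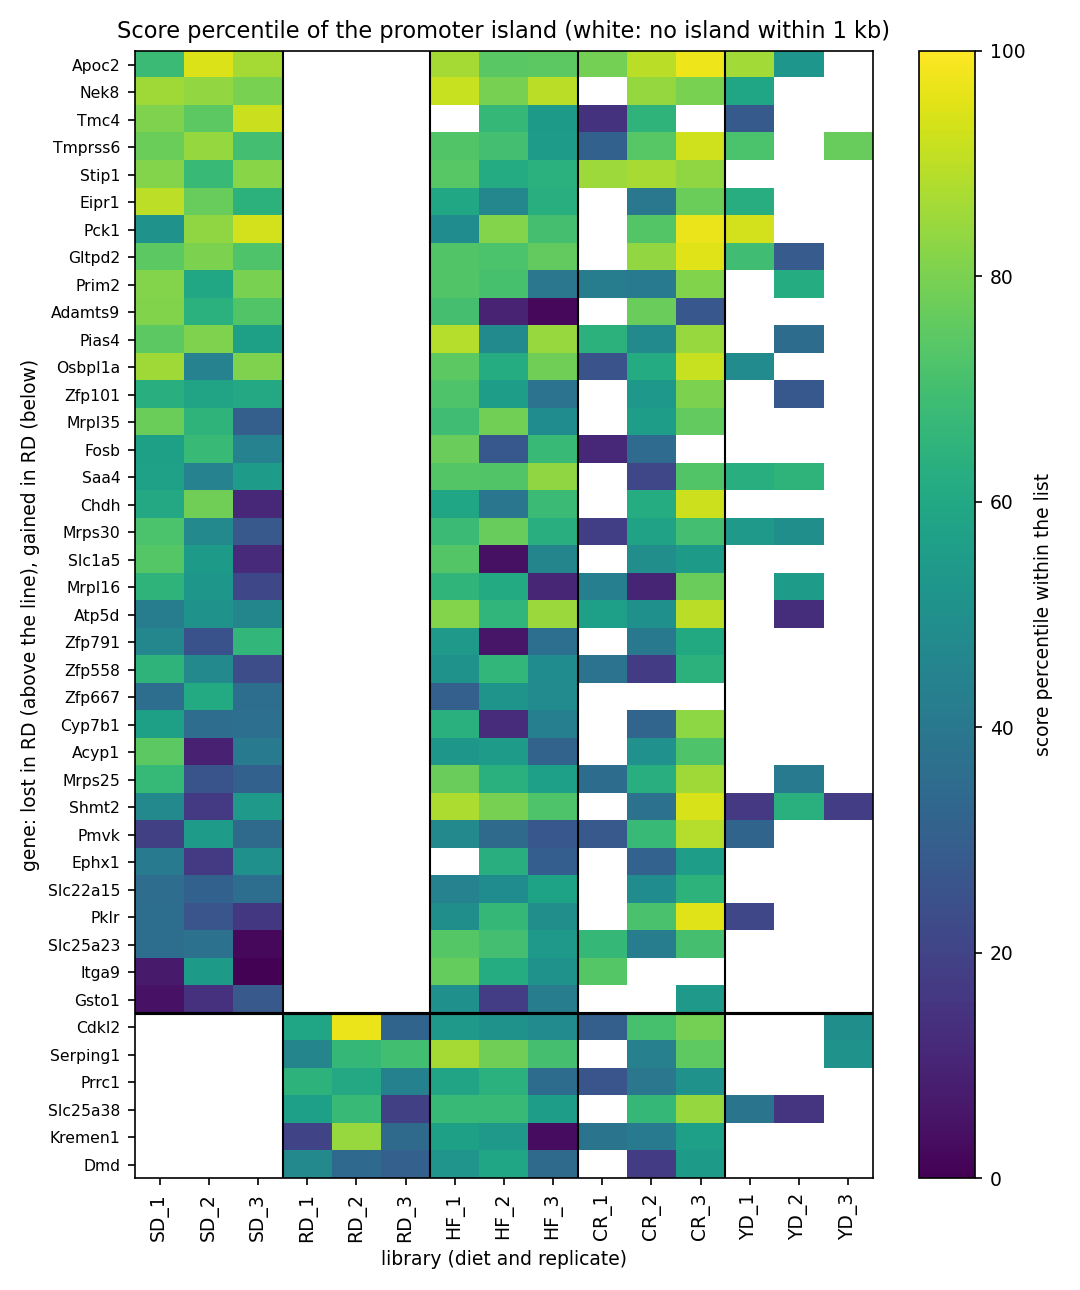
Score percentile within the list (colour, 0 to 100) of the promoter island of each named gene (vertical axis) in the 15 libraries (horizontal axis), where white means no island within 1 kb of a TSS. The lost genes above the line are white in the 3 RD libraries and, for most of them, in yellow corn (YD) libraries, but coloured in nearly all HF libraries.

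Of 43 genes of pyruvate metabolism in a hand-written list, 9 (20.9%) had an island in at least 2 of 3 SD and in no RD library, against 3.92% of all protein-coding genes, and none was gained. Of the genes with an island in any of the 6 libraries, which leaves out the 10686 never marked, this was 24.3% of 37 list genes and 7.7% of all 11069. The difference of these shares is a description, with no test. The study chose this pathway on these samples, so the count is not independent evidence of its direction. The rule of 3 against 0 named Pck1, Pklr and Acyp1, 3 of the 24 list genes marked in all 3 SD libraries (12.5%, against 3.61% of all such genes). Pklr, the pyruvate kinase of liver and red cells, had SD islands of 2000, 1000 and 1800 bp at low percentiles of 36.1, 26.3 and 16.4, and its nearest RD island was 27578 bp away. Acyp1, an acylphosphatase, had islands of 1400, 400 and 1600 bp, but the one in SD replicate 3 lay at another TSS than the others. The remaining 6 had an island in 2 SD libraries. They were Pkm, the other pyruvate kinase gene, Me2, the mitochondrial malic enzyme, Ldhd, the D-lactate dehydrogenase, Grhpr, the glyoxylate reductase, Acat2, a cytosolic thiolase, and Acyp2. Dlat and Pdhx of the pyruvate dehydrogenase complex and Mpc1 and Mpc2, the mitochondrial pyruvate carrier, were marked in all 6 libraries, whereas Pdhb was marked in 3 SD and 2 RD, Dld in 2 SD and 3 RD and Pdha1 in 2 SD and 1 RD. The median SD percentile of the 24 genes was 79.98, against 74.1 for all genes marked in 3 SD libraries. With the same number of marked genes per library 4 of 43 list genes (9.30%) were lost, against 1.34% of all, and these were Acss2, Acyp1, Pck1 and Pdp2. The 3 genes named by 3 against 0 were then 0. Without SD replicate 1, when both remaining SD libraries had to hold an island, the count was 3 of 43 (6.98%, against 1.44%).

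The list of glycine, serine and threonine metabolism lost 3 of 40 genes (7.5%, against 3.92% of all) under the rule of 2 of 3, and no gene was gained. Of the genes marked in any of the 6 libraries it was 9.09% of 33, near the 7.7% of all. This pathway too was chosen by the study on these samples. Chdh, which oxidises choline towards betaine, had SD islands of 1800, 2200 and 1600 bp at percentiles of 60.3, 78.2 and 11.6. Shmt2, the mitochondrial serine hydroxymethyltransferase, had islands of 1200, 1200 and 2800 bp at percentiles of 47.2, 17.0 and 53.5, and its nearest RD island was 94957 bp away. Grhpr was the third gene. Shmt1, the cytosolic enzyme, and Mat1a, which makes S-adenosylmethionine, were marked in all 6 libraries. With the same number of marked genes per library no gene of the list was lost.

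For the genes of integrin-linked kinase signalling, another pathway chosen by the study, the count was near that of all genes. Of 87 genes 4 (4.60%, or 6.25% of the 64 marked in any of the 6 libraries) were lost under the rule of 2 of 3, namely Itga9, Gsk3a, Snai1 and Tns1. Itga9, the integrin alpha 9 subunit, was the one lost by 3 against 0, with SD percentiles of 7.15, 54.5 and 0.648. Ilk itself was marked in all 6 libraries, as were Rsu1, Lims2, Tln1, Vcl and Actb.

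Several other groups of liver genes held lost members. Of 78 mitochondrial ribosomal protein genes, Mrps25, Mrps30, Mrpl16 and Mrpl35 were lost by 3 against 0, which is 6.15% of the 65 marked in all 3 SD libraries, against 3.61% of all such genes, and Mrps36 by 2 against 0. By the rule of 2 of 3 the loss was 6.49% of the 77 marked in any of the 6 libraries, below the 7.7% of all. When marked genes per library were equal in number, 1 of 38 was lost by 3 against 0 (2.63%, against 1.43% of all). The SD percentiles of Mrps25, Mrps30, Mrpl16 and Mrpl35 ran from 21.6 to 77.5. Among immediate early genes Fosb, Atf3, Nr4a2 and Nr4a3 had an island in at least 2 of 3 SD and no RD library (4 of 24, 16.7%, against 3.92% of all). Without SD replicate 1, when both remaining SD libraries had to hold an island, the count was 1 of 24 (4.17%, against 1.44% of all). With the same number of marked genes per library it was 2. Of the 4, Fosb, a subunit of AP-1, had SD islands of 2800, 2400 and 2200 bp at percentiles of 56.6, 67.9 and 44.2. By 3 against 0, 1 gene each was lost from several further lists. They were Cyp7b1, the oxysterol hydroxylase of bile acid synthesis, Pmvk, phosphomevalonate kinase of the cholesterol pathway, Ephx1, the microsomal epoxide hydrolase, Gsto1, a glutathione transferase, Saa4, the constitutive serum amyloid A, Slc1a5, a glutamine transporter, Slc22a15 and Slc25a23, which are solute carriers, and Atp5d, a subunit of ATP synthase. Their mean SD percentiles lay between 15.7 (Gsto1) and 52.1 (Saa4). Atp5d was 1 of 67 respiratory chain subunit genes marked in all 3 SD libraries (1.49%), and Pmvk 1 of 36 lipid and cholesterol genes (2.78%). These shares lie below the 3.61% of all such genes, and those of the other lists ran from 4.17 to 10%. Each share rests on 1 gene, with no test. Among 365 Zfp zinc finger genes 24 were lost by the rule of 2 of 3 (6.58%, against 3.92% of all, and 8.28% of the 290 marked in any of the 6 libraries, against 7.7%), with Zfp101, Zfp558, Zfp667, Zfp791 and Zfp960 lost by 3 against 0. Zfp960 was chosen after its values were seen. At equal numbers of marked genes 4 Zfp genes were lost (1.10%, against 1.34% of all) and 6 gained. Without SD replicate 1, with both remaining SD libraries required, there were 7 lost (1.92%, against 1.44%).

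Counts for the other lists of interest are by the rule of 2 of 3. By that rule 3.92% of all protein-coding genes were lost, or 7.7% of those marked in any of the 6 libraries. None of 28 H3K4 methyltransferase and demethylase genes (27 marked in any of the 6 libraries) and none of 39 proteasome genes (37 marked) was lost. Of the 36 proteasome genes marked in all 3 SD libraries 86.1% were marked in all 3 RD libraries, against 62.5% of all such genes. Of 83 cytosolic ribosomal protein genes 1 was lost (1.20%), and of 84 respiratory chain subunit genes 1 (1.19%). In the hepatocyte list 2 of 49 genes (4.08%) were lost, Pck1 and Foxa1. All 49 were marked in any of the 6 libraries, so this share lies below the 7.7%. Of 49 genes in pathways linked to cyanidin-3-O-glucoside 2 (4.08%) were lost, Stat5a and Vegfc. Of 39 Nrf2 antioxidant genes 3 were lost (7.69%, above the 3.92% of all genes), Ephx1, Gstp1 and Maff. On the base of marked genes the Nrf2 share was 9.38% of 32, against 7.7% of all.

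**Figure D4:**
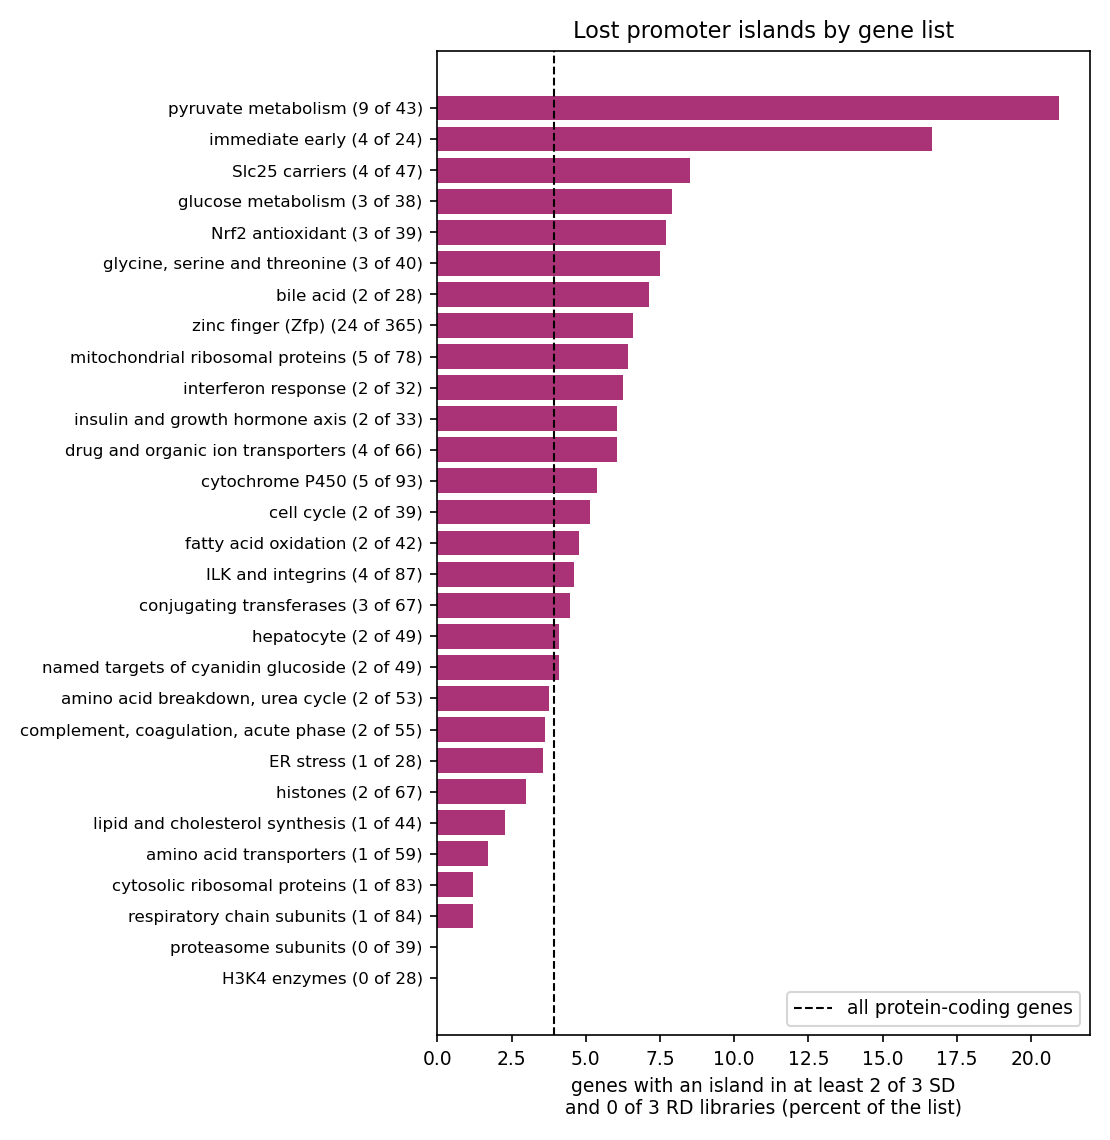
Share of each gene list (horizontal axis, percent) with an island in at least 2 of 3 SD and 0 of 3 RD libraries, for the 29 lists with at least 10 genes marked in all 3 SD libraries, with counts beside the names and the share of all protein-coding genes (3.92%) as a dashed line. Pyruvate metabolism (9 of 43) and immediate early genes (4 of 24) have the longest bars, and 19 lists lie above the line. The line counts the 10686 genes never marked, and among genes marked in any of the 6 libraries the share of all was 7.7%. On that base pyruvate metabolism (24.3%) and immediate early genes (18.2%) lie above it. Some lists above the line lie below 7.7%, among them ILK and integrins (6.25%) and mitochondrial ribosomal proteins (6.49%).

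The libraries of the other diets, which the choice of genes did not use, showed where else the lost promoters were marked. Of the 229 lost genes 99.1, 96.9 and 99.6% had an island in HF replicates 1 to 3, and 219 (95.6%) had one in all 3. In CR the shares were 45.9, 93.9 and 93.9%. In YD they were 17.5, 23.6 and 11.4%, and 137 genes (59.8%) had no YD island. Of the 3962 genes marked in all 6 SD and RD libraries 63.5 to 85.8% had an island in a YD library. Among the genes named above as lost by 3 against 0, Shmt2 was the only one with an island in all 3 YD libraries. Among genes with a mean SD percentile of 25 to 75, 59.7% of 206 lost genes and 8.62% of 1381 shared genes had no YD island. Within this range the lost genes still ranked lower in SD, with a median of 48.8 against 66.0, so the 2 sets are not matched in rank. The order of diets followed the number of marked genes per library, since 24.3, 26.5 and 17.5% of all protein-coding genes had an island in YD and 54.6, 47.6 and 51.5% in HF, and CR replicate 1, with the lowest share among the lost genes in CR, had 35.5%. The part of these totals was not tested.

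**Figure D5:**
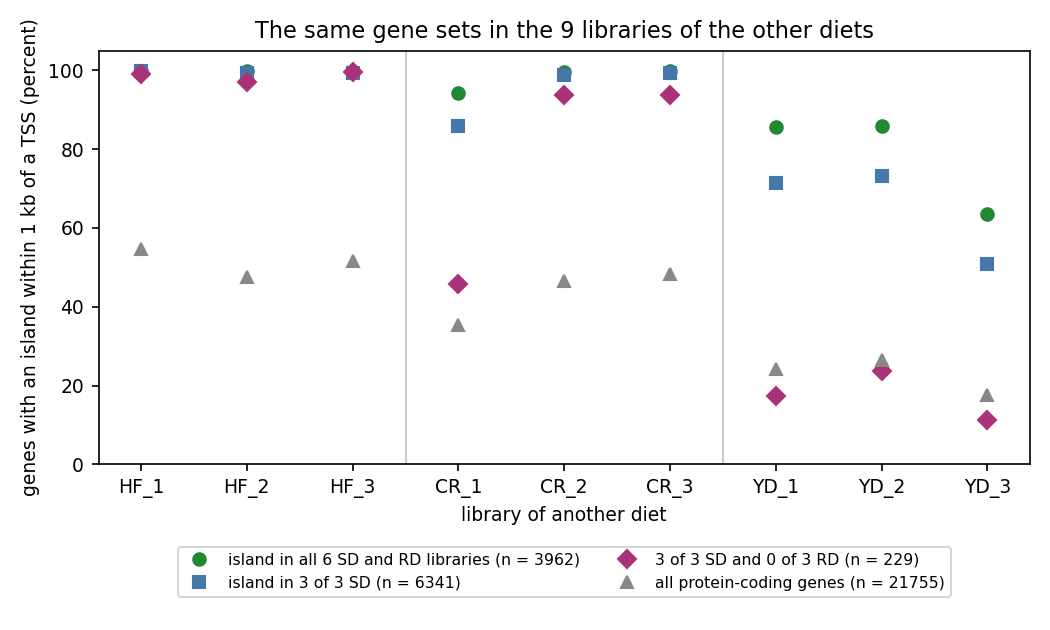
Percent of genes with an island within 1 kb of a TSS (vertical axis) in each of the 9 libraries of the HF, CR and YD diets (horizontal axis), for 4 sets of genes. The genes lost in RD (diamonds) reach 96.9 to 99.6% in HF and 11.4 to 23.6% in YD, where the genes marked in all 6 SD and RD libraries (circles) reach 63.5 to 85.8%.

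Peaks at the 3962 shared promoters were compared by width and rank. Median widths over these promoters were 2400, 2000 and 2200 bp in SD and 1600, 2400 and 1600 bp in RD, so RD replicate 2 had wide peaks and the other RD mice narrow ones. On the log2 scale the RD medians were lower by 0.26 on average (−0.26), and widths were therefore centred on the median of each library before the test. Zfp2, a zinc finger gene, was the only promoter that passed (limma, adjusted p = 0.0236), which is 0.0252% of those tested. Its island was 1800, 1000 and 1600 bp wide in SD and 13000, 21800 and 4200 bp in RD, a centred log2 difference of 3.16 ± 0.43 (SE). The groups did not overlap. Over 12 alternatives its adjusted p ranged from 0.000604 to 0.632, and it passed in 3 of them. No promoter was narrower at an adjusted p under 0.05 (limma, 0%), with 82 promoters wider and 115 narrower at an unadjusted p under 0.05. For the score percentile no promoter was higher or lower (limma, 0% each), with 16 higher and 89 lower at an unadjusted p under 0.05 and a lowest adjusted p of 0.920.

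In the directions where no promoter passed, those with the lowest unadjusted p carried large differences. They did not pass after adjustment over all shared promoters. The unadjusted p was 0.00115 for the width of Seh1l and 0.00195 for that of Psme3 (limma). Psme3, the activator subunit of the nuclear proteasome, had islands of 2400, 3600 and 3400 bp in SD and 1000, 1400 and 800 bp in RD, a centred log2 difference of −1.31 ± 0.34 (SE; limma, adjusted p = 0.839). Seh1l, a nuclear pore protein, had widths of 3400, 2200 and 2600 bp against 800, 1000 and 800 bp (−1.38 ± 0.33, limma, adjusted p = 0.839). Brox and Aida, neighbours that share an island, had percentiles of 62.9, 83.5 and 77.9 in SD and 99.4, 99.6 and 99.5 in RD, a difference that did not pass (limma, adjusted p = 0.920). Zfp710 had percentiles of 92.4, 96.7 and 89.3 in SD and 46.1, 51.5 and 37.0 in RD, and Phf12 had 98.4, 99.3 and 97.7 against 86.8, 91.9 and 90.5 (both limma, adjusted p = 0.920). In all 6 genes the groups did not overlap. Over all shared promoters the RD widths in bp lay below every SD width in 10.3% of genes and above in 0.732%, after centring below in 5.63% and above in 4.22%, and the RD percentiles below in 6.76% and above in 1.72%.

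At the pyruvate genes marked in both diets the width differences were mostly negative. Of the 16 shared promoters of the list 14 had a negative centred log2 difference in width, with a median of −0.45 against −0.03 over all shared promoters, and 5 of 16 lay below every SD mouse after centring. None passed the test. Mdh1, the cytosolic malate dehydrogenase, had widths of 4000, 2800 and 3600 bp in SD and 1800, 2600 and 1400 bp in RD (−0.61 ± 0.28 SE, limma, adjusted p = 0.891). Acaca, which makes malonyl-CoA for fatty acid synthesis, had 2600, 3200 and 2000 bp against 1200, 800 and 1200 bp (−1.02 ± 0.40, limma, adjusted p = 0.891). Aldh2, the mitochondrial aldehyde dehydrogenase, had 2800, 2600 and 2000 bp against 1000, 1800 and 1000 bp, and Mpc2, a subunit of the mitochondrial pyruvate carrier, 7000, 4600 and 4800 bp against 1600, 5200 and 2800 bp, which overlap before centring. Pdhx and Ldha had positive differences of 0.26 ± 0.31 and 0.18 ± 0.40. The median of the list minus that of all shared promoters was −0.42 and lay between −0.44 and −0.15 over the alternatives. In score percentile the list had a median of −12.2 points against −3.33 over all, but by score per base it had −0.27 against 0.28, with 8 genes on either side.

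For glycine, serine and threonine genes the differences in rank were mostly negative. Their 14 shared promoters had a median of −20.4 percentile points, 12 of them negative, where 2552 of all 3962 were negative with a median of −3.33. Their median centred log2 width difference was 0.03. With percentiles taken among the shared promoters alone the list had a median of −14.0 with 9 of 14 negative, and by score per base −12.5 with 11 negative. Shmt1 had percentiles of 95.2, 79.8 and 84.9 in SD and 68.5, 24.8 and 47.9 in RD, and Psph, the phosphatase of serine synthesis, 90.8, 96.3 and 86.1 against 54.7, 78.8 and 35.3. Gnmt, which uses up S-adenosylmethionine, had 85.4, 87.8 and 95.8 against 46.6, 82.7 and 76.9. None passed the test (limma, adjusted p = 0.920 for each of the 3). Mat1a and Srr went the other way, and Dmgdh and Bhmt2 share 1 island. The study's choice of both pathways on these samples holds for these medians too.

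Zinc finger genes had mostly positive width differences relative to other promoters. The 94 shared Zfp promoters had a median centred log2 difference of 0.28, with 64 wider and 30 narrower, and it was 0.02 without centring. The median of the list minus that of all shared promoters lay between 0.19 and 0.37 over the alternatives. Within the list Zfp942 and Zfp930 came next after Zfp2, with differences of 1.84 and 1.43, neither of which passed (limma, adjusted p = 0.891 for each). Of the 12 shared immediate early genes 4 had RD widths below every SD width, against 5.63% of all shared promoters after centring and 10.3% in bp. They were Jun, Junb, Fosl2 and Btg2, with centred log2 differences of −0.71 ± 0.29, −0.85 ± 0.27, −1.07 ± 0.29 and −0.53 ± 0.31 (SE), and none passed the test. The remaining lists had medians between −0.20 and 0.11 on the centred log2 scale.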

How the data were processed

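H3K4me3 was measured in liver sections by PAT-ChIP-seq, 1 library per mouse. Reads of 50 bp, sequenced from 1 end, were mapped by the authors to mm10 (BWA). They removed unmapped reads, duplicates, reads with a MAPQ under 1 and reads outside chromosomes 1 to 19 and X, and called islands in each library with SICER2 (fragment 200 bp, window 200 bp, gap 400 bp, FDR under 0.05). The deposited score is a sum over the windows of an island, in which each window adds its negative natural log Poisson probability, and libraries were not scaled to each other. No input control and no read counts per island entered the tests, and intervals for counting error are therefore not given.

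The widest island within 1 kb of any TSS (GENCODE M21) stood for a gene. Library totals were compared by two-sided exact permutation tests over 20 arrangements. Log2 widths and score percentiles at the 3962 shared promoters were tested with limma 3.58.1 in R 4.3.3 (trend, Benjamini-Hochberg over all shared promoters, threshold 0.05). Other steps used Python 3.11.15, pandas 2.3.3 and scipy 1.17.1. Reads were recovered with an effective genome fraction of 0.74 to within 0.00045 of a whole number. CpG ratios used all TSS windows of a gene, with the median per gene. Calculations were checked on simulated data. The members and gene lists, which were written by hand and are not KEGG or IPA sets, were chosen with earlier results of these data known. Named genes were the 12 lost and up to 12 gained by 3 against 0 with the highest mean percentile, up to 4 lost or gained genes a list, and at shared promoters up to 4 that passed, or the 2 with the lowest p, in each direction. Alternatives changed the distance to the TSS, the islands or genes kept, the fit and the libraries.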

Additional observations from a re-analysis of the deposited data

How the results depend on the processing

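The setting with the same number of marked genes per library was added after seeing the data. It gave 292 lost and 269 gained genes by 2 of 3 and 57 and 56 by 3 of 3, in place of 852, 48, 229 and 6. Under the other settings lost genes outnumbered gained ones. The gained genes by 2 of 3 were 74 with 3 kb and 159 with all annotated genes, and by 3 of 3 they were 13 with all annotated genes and 2 with islands at or above the median score. Only 36 of the 229 lost genes were shared with the call on islands at or above the median score, and 115 with that on equal numbers of islands. Leaving out each mouse gave 314 to 1567 lost and 9 to 145 gained genes by 2 of 3. By 3 of 3 it gave 314 to 669 lost and 8 to 29 gained, and there were 0 to 1 wider promoters. The diet with a mouse left out was then judged on its remaining libraries alone, and presence required all of them. The 2 rules therefore gave the same lost counts without an SD mouse. The count of wider promoters was 0 without the mean trend, with the TSS inside an island, without centring and with covered bases within 5 kb of the TSS, and the cause was not tested. The library measures kept their direction and missed the threshold in each setting run, and the counts of narrower, higher and lower promoters stayed at 0. Zfp2 kept its direction in 12 of 12 settings and its call in 3. Of the 41 genes named for a lost or gained promoter, Gltpd2, Pias4, Prim2 and Stip1 kept the call in 14 of 14 settings, and Dmd in 9. Leaving out a mouse or counting all annotated genes kept each of these calls by construction. Leaving out chromosome X kept the autosomal calls and removed that of Dmd, which lies on X, by construction too. Only the remaining settings could test the calls. With the replicate number as a block the count of wider promoters was also 0, and the exact permutation p was 0.25 for the share of marked genes (−8.38 points), 0.5 for the share of islands at promoters and 1 for promoter island width. With the block there were only 8 arrangements, so 0.25 was the smallest two-sided p that this permutation test could give. For same-numbered mice the correlations of their deviations at shared promoters lay between −0.08 and 0.01. They rest on centred widths and within-list percentiles, which remove differences between whole libraries. They therefore cannot show whether same-numbered mice share a preparation or a litter. Depth per island is unknown, and 3 mice a diet cannot give an exact p under 0.1.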
